A study of Mus musculus with 12 samples.

Results

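The rectal samples described here came from 6 mice that all received berberine (BBR), a plant alkaloid. Of these, 3 were colitis mice receiving BBR and 3 were normal mice receiving BBR, so that the comparison gives the effect of dextran sulfate sodium (DSS) among BBR-treated animals. The mice were assigned by the labels alone: the colitis mice numbered 2, 3 and 4 and the normal mice numbered 1, 3 and 4, which are 6 of the 12 mice of the series. The other 6 mice, used only to set the effect beside the one without BBR, were 3 colitis mice (numbered 1, 2 and 4) and 3 normal mice (numbered 1, 3 and 4). All were male C57BL/6 mice aged 8 to 10 weeks with no transgene. Colitis was induced with 2.5% DSS in the drinking water for 7 days, and BBR was gavaged daily (100 mg/kg) for 7 days according to the methods of the study and 6 days according to the labels. The tissue is called colorectum or colon in the labels and rectum in the study's methods, whose term is used here, and whether a column holds 1 animal or a pool was not stated in the sources used here, so each column is called a mouse.

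DSS is a sulfated polysaccharide that damages the epithelium of the large bowel and lets luminal bacteria reach the tissue below it. The tissue answers with cytokines that signal through NF-κB and through JAK kinases and STAT factors, epithelial cells release antimicrobial proteins, and neutrophils and monocytes enter from the blood. Meanwhile the crypts lose stem cells that depend on Wnt proteins from the stroma and must regrow them. BBR is known as an anti-inflammatory compound with poor uptake from the gut.

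Expression was measured by RNA sequencing and is given as FPKM, the fragments of a gene scaled to its transcript length and to the library's mapped fragments, for 17734 genes. Genes with a mean of at least 0.1 FPKM over the 12 mice were tested (15315 genes). Of the defining markers, all 8 of epithelium and all 7 of distal colon and rectum were detected, and the epithelial markers summed to 5811 to 9157 FPKM in the colitis mice receiving BBR and 6841 to 11199 FPKM in the normal mice receiving BBR. The mice numbered 4 stood apart in every group: their totals ran from 482194 to 504337 FPKM against 696286 to 765876 elsewhere, and 872 to 1086 genes were listed at 0 against 1332 to 1926. From the steps between low values, 3 reads on a transcript of 2000 bases were estimated to be worth 0.105 to 0.118 FPKM in most mice, and 0.0796 to 0.0909 FPKM in those numbered 4, so values near 0.1 rest on a few reads. The steps matched a transcript length shortened by 20 to 60 bases in the mice numbered 4 and by 250 to 280 bases in the others, so the FPKM of short transcripts is on a different scale in 1 mouse of each group. On the first principal component, which held 48.8% of the variance, colitis mice 2 and 3 receiving BBR lay at 65.8 and 88.3, whereas colitis mouse 4 receiving BBR lay at -42.2, among the normal mice receiving BBR (-66.1 to -23.4). Counts for the main gene lists are therefore also given without the mice numbered 4, and the source of their difference was not otherwise tested. Those counts compare only colitis mice 2 and 3 with normal mice 1 and 3 receiving BBR. They leave out the colitis mouse that lay among the normal mice, so they are not an independent check.

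Among BBR-treated mice, DSS raised the cytokine-signalling inhibitor Socs3, the antiprotease Slpi, the chloride channel regulator gene Clca4b and the NAD-consuming enzyme Cd38, and lowered the stromal growth-factor binder Igfbp3 and the cytokine Il15. These were the 6 genes past an adjusted p of 0.05 (limma across all 12 mice on log2(FPKM + 0.1), Benjamini-Hochberg over 15315 genes). The 4 that rose were 0.0261% of the tested genes and the 2 that fell were 0.0131%. At an unadjusted P of 0.05 or less, the limit the study used, 363 genes were higher (2.37%) and 2647 lower (17.3%), and the 3 mice of each group did not overlap for 346 genes on the higher side (2.26%) and 2754 on the lower side (18.0%). The excess of lower genes follows a shift of the whole table: over all tested genes the log2 fold change had a median of -0.40, and genes higher in colitis made up 12.1% of those at P of 0.05 or less as deposited, 52.5% after quantile normalization and 63.5% after median centring, in which each mouse's median is set equal. Log2 fold changes are given as deposited and should be read against that -0.40. The matching median over all genes was -0.55 without the mice numbered 4, -0.08 between the mice numbered 4 and -0.32 in mice without BBR, for the values given in those ways below. Without the mice numbered 4, 229 genes (1.50%) were past the adjusted limit on the higher side and 2073 (13.5%) on the lower side, all 6 of the above among them. Leaving out colitis mouse 4 receiving BBR alone gave 2255 genes past the limit, and a block for the mice numbered 4 gave 268.

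Socs3 encodes a feedback inhibitor that STAT3 induces and that shuts off receptors of the IL-6 family. It had the smallest adjusted p. It read 2.43, 1.55 and 1.86 FPKM in normal mice 1, 3 and 4 receiving BBR and 20.8, 61.1 and 23.9 FPKM in colitis mice 2, 3 and 4 receiving BBR (the order of mice used for every set of values below). The groups were far apart, and mouse 4 with colitis stood at the level of mouse 2. The log2 fold change was 3.96 ± 0.40 (SE, n = 3 a group), 15.5-fold, with an adjusted p of 0.00786 by limma. Between the mice numbered 4 alone the difference was 3.62. For each of the 6 genes the exact permutation test (two-sided) gave p = 0.1, the smallest value that 3 mice a group allow. The 250 bases before the Socs3 start are shown because they hold a match to the STAT motif TTCNNNGAA, in capitals, 154 bases before the start, which 7.02% of 32851 mouse promoters of the same length also hold (RefSeq, GRCm38.p6, chr11:117969367-117969616, minus strand, 5′ to 3′).
Socs3: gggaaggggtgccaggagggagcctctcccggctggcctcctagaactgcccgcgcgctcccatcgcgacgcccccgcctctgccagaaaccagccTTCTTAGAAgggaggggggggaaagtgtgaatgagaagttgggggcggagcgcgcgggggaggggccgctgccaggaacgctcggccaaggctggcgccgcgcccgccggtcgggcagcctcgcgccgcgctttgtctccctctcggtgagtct

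Clca4b, a member of the calcium-activated chloride channel regulator family, had the largest fold change of the 6. It read 6.35, 1.43 and 1.67 FPKM in the normal mice and 378, 3367 and 100.3 FPKM in the colitis mice. All 3 colitis mice were above all normal mice, but they spanned a wide range, with mouse 3 highest and mouse 4 lowest. The log2 fold change was 7.60 ± 0.98 (adjusted p = 0.0371, limma). Reads may be shared with its close copy Clca4a, so the assignment to 1 gene is uncertain, and this was not tested. Slpi, a secreted inhibitor of neutrophil serine proteases, had the same order of mice, at 12.1, 4.8 and 7.04 FPKM in the normal and 446, 1118 and 113 FPKM in the colitis mice (log2 5.67 ± 0.79, adjusted p = 0.0371, limma). Cd38, an ectoenzyme found on plasma cells, myeloid cells and other cells, had a smaller but tighter change. It read 61.3, 65 and 56.7 FPKM in the normal and 151, 215 and 141 FPKM in the colitis mice, 2.72-fold (log2 1.44 ± 0.20, adjusted p = 0.0371, limma).

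Igfbp3, a binding protein for insulin-like growth factors made largely by stroma, read 14.7, 12.9 and 14.5 FPKM in the normal and 1.55, 1.87 and 3.96 FPKM in the colitis mice. The normal mice lay close together and all colitis mice were below them, mouse 4 least so. It fell by 2.58 ± 0.35 on the log2 scale (adjusted p = 0.0371, limma). Il15, a cytokine that keeps intraepithelial lymphocytes and natural killer cells alive, fell by 1.86 ± 0.26 (adjusted p = 0.0371, limma), from 22.4, 25.7 and 35.9 FPKM to 9.47, 5.04 and 8.72 FPKM. All 6 genes kept their direction under quantile normalization and median centring, but the calls were not secure. Median centring kept the calls of Socs3 and Igfbp3 and lost those of Clca4b, Slpi, Cd38 and Il15 (adjusted p = 0.0509, 0.0690, 0.0833 and 0.166, limma), and quantile normalization lost that of Il15 (adjusted p = 0.110, limma). Without normal mouse 3 receiving BBR none of them passed (smallest adjusted p 0.0842, limma, with 1693 genes at P of 0.05 or less), without normal mouse 1 only 1 gene did, and a fit of the 6 mice alone called 0 genes (smallest adjusted p 0.222, 2093 genes at P of 0.05 or less).

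**Figure D1:**
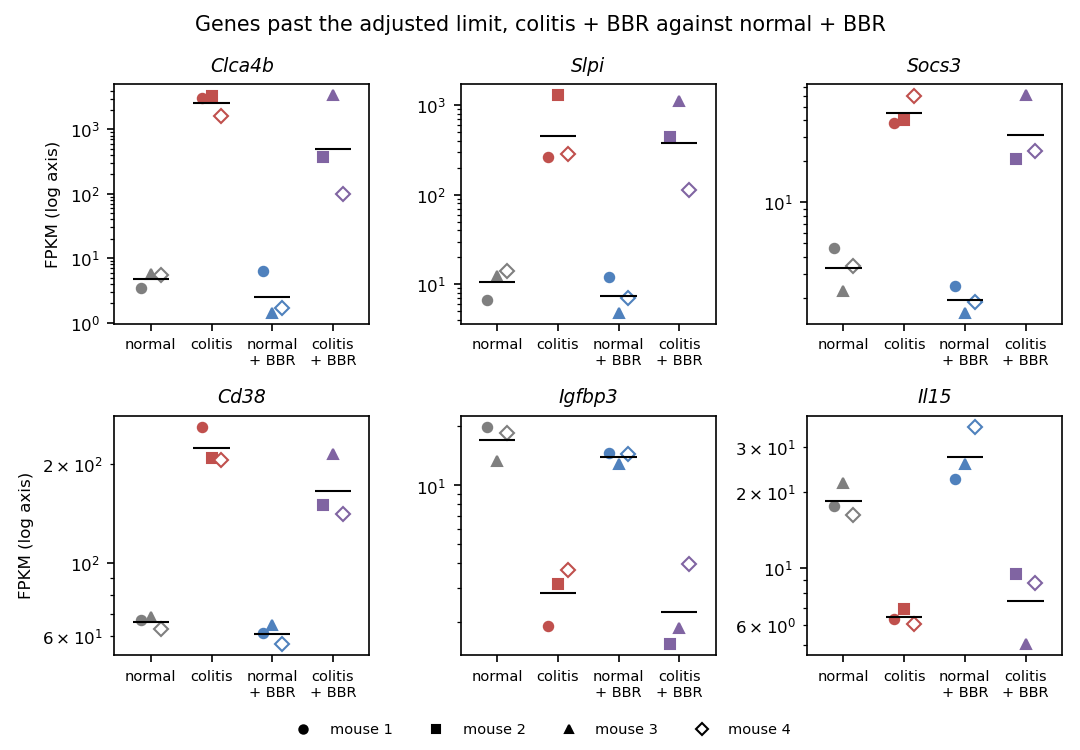
FPKM (log axis) of the 6 genes past the adjusted limit in each mouse of the 4 groups; symbols give the mouse number, open diamonds are the mice numbered 4, and lines are means on the log2(FPKM + 0.1) scale. In each panel the 3 colitis mice receiving BBR lie on 1 side of the 3 normal mice receiving BBR, as for Igfbp3 at 1.55 to 3.96 against 12.9 to 14.7 FPKM.

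The genes next in line missed the adjusted limit and are named by the smallest P among genes whose groups did not overlap. Slc5a9, a sodium-coupled sugar transporter, read 1.27, 1.56 and 1.15 FPKM in the normal and 9.24, 28.9 and 7.42 FPKM in the colitis mice (adjusted p = 0.0528, limma). The intestinal homeobox factor Isx read 3.91, 1.99 and 1.24 FPKM against 13.8, 42.3 and 13.6 FPKM (adjusted p = 0.0719). The cytokine Tnf was low in all normal mice, at 0.3, 0.34 and 0.25 FPKM, and read 7.68, 33.8 and 2.15 FPKM in the colitis mice (adjusted p = 0.0719). Fut2, which adds fucose to mucosal glycans, the lysolipid transporter Mfsd2a and the tachykinin gene Tac1 had log2 fold changes of 1.70, 4.13 and 1.98 (adjusted p = 0.106, 0.111 and 0.117, limma). On the lower side stood 3 genes of antibody-secreting cells, Jchain, Mzb1 and Tnfrsf17, described further on, and the stromal proteoglycan Ogn, at 48.9, 49.5 and 92.7 FPKM in the normal and 10.2, 6.45 and 24.4 FPKM in the colitis mice (adjusted p = 0.0863). Adamdec1, a metalloprotease of gut mononuclear and stromal cells, read 47, 52.5 and 45 FPKM against 3.4, 7.19 and 17.1 FPKM (adjusted p = 0.0719). Glipr1 and Plekha1, a phosphoinositide-binding adaptor, had log2 fold changes of -1.59 and -1.43 (adjusted p = 0.0719 and 0.117). Pet117, a mitochondrial assembly factor, was listed at 0 in all 3 colitis mice and at 1.96, 2.69 and 0.52 FPKM in the normal mice (adjusted p = 0.0502). Without the mice numbered 4, each of these 14 genes passed the adjusted limit (adjusted p = 0.00675 to 0.04, limma), and each also did with a block for those mice (0.0114 to 0.0441).

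The gene lists that follow were read by their counts and medians. Members named beyond those past the limit and the first 5 of a list were chosen after their values were seen, because their groups did not overlap or because the text turns on them. Where a list tracks a cell type, fewer cells of that type and less RNA per cell cannot be told apart in bulk tissue.

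**Figure D2:**
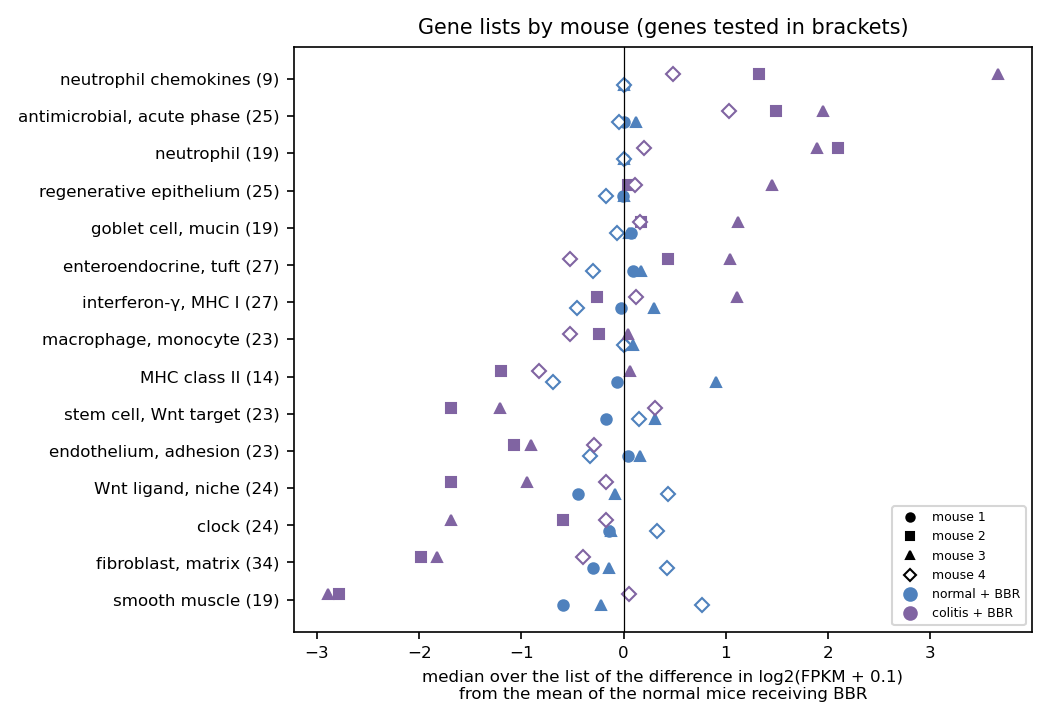
For each mouse receiving BBR, the median over a gene list of the difference in log2(FPKM + 0.1) from the mean of the 3 normal mice receiving BBR (x axis), with the number of genes tested in brackets; blue symbols are normal and purple symbols colitis mice, and open diamonds are the mice numbered 4. The antimicrobial list lies at 1.03 to 1.95 in the 3 colitis mice, whereas smooth muscle lies at -2.78 and -2.90 in colitis mice 2 and 3 and at 0.05 in colitis mouse 4.

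Neutrophil genes and the chemokines that call neutrophils were on the higher side, strongly so in colitis mice 2 and 3 and hardly in mouse 4. Of 19 neutrophil genes tested, 7 were at P of 0.05 or less and 5 did not overlap, all on the higher side, against 2.37% and 2.26% of all genes, and none passed the adjusted limit (median log2 fold change 1.52, 0.00 between the mice numbered 4). Without the mice numbered 4, 8 passed it, all higher, against 1.50% of all genes. S100a8, a subunit of the neutrophil protein calprotectin, had a value of 0 in each normal mouse receiving BBR, against 118, 148 and 0.31 FPKM in the colitis mice. Its partner S100a9 read 0, 0.27 and 0.24 FPKM in the normal and 85.3, 45.7 and 0.11 FPKM in the colitis mice, so that colitis mouse 4 was inside the normal range. The receptors Csf3r and Cxcr2 had log2 fold changes of 1.52 and 2.01 with overlapping groups. Ly6g, 1 of a family of near-identical genes and so uncertain, was already abundant in the normal mice (793, 499 and 417 FPKM). Among the chemokines and their inducers, 5 of 9 were at P of 0.05 or less on the higher side, against 2.37% of all genes (median 2.05), and 4 passed the adjusted limit without the mice numbered 4. The CXCR2 ligand Cxcl1 read 0.5, 0.79 and 0.38 FPKM in the normal and 11.7, 30.1 and 0.99 FPKM in the colitis mice. Cxcl2 and the granulocyte growth factor Csf3 were listed at 0 in every normal mouse and read 0.49, 3.73 and 0.26 FPKM and 0.06, 0.3 and 0.04 FPKM in the colitis mice. The range in colitis mice ran from mouse 3, highest for Cxcl1, Cxcl2 and Csf3, down to mouse 4.

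Antimicrobial and acute-phase genes were the list with the most members apart on the higher side. Of 25 tested, 13 did not overlap on the higher side and 12 were at P of 0.05 or less, against 2.26% and 2.37% of all genes, and Slpi passed the adjusted limit (median 1.66, 0.61 between the mice numbered 4). Without the mice numbered 4, 10 passed on the higher and 2 on the lower side, against 1.50% and 13.5% of all genes. Duox2, the epithelial oxidase that makes hydrogen peroxide, read 14.6, 12.1 and 17.7 FPKM in the normal and 161, 298 and 32.5 FPKM in the colitis mice (adjusted p = 0.15, limma; 0.00655 without the mice numbered 4). Its maturation factor Duoxa2 read 9.39, 4.68 and 10.8 FPKM against 145, 419 and 22.6 FPKM. Both genes of this enzyme therefore stood apart in every colitis mouse. Nos2, the inducible nitric oxide synthase, read 0.56, 0.66 and 0.99 FPKM in the normal and 11.7, 148 and 2.21 FPKM in the colitis mice. Zc3h12a, an endoribonuclease that degrades cytokine mRNAs, and Lbp, which presents lipopolysaccharide, had log2 fold changes of 1.66 and 2.22 (adjusted p = 0.117 and 0.158). The lectin genes Reg3b and Reg3g were seen mainly in colitis mouse 3, at 0, 75.3 and 0.22 FPKM and 0.27, 36.9 and 0.29 FPKM over the 3 colitis mice, and their reads may be shared. On the lower side was the epithelial oxidase Nox1, at 10.6, 11.7 and 5.34 FPKM in the normal and 0.12, 0.69 and 7.73 FPKM in the colitis mice, where mouse 4 lay inside the normal range.

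Of the IL-6 family and the JAK-STAT pathway, Socs3 was the 1 gene of 28 past the adjusted limit, against 0.0261% of all genes on the higher side. At P of 0.05 or less, 4 were higher and 3 lower, and 3 and 3 did not overlap, against 2.37%, 17.3%, 2.26% and 18.0% of all genes (median -0.16). The ligand Il6 was listed at 0 in the normal mice and read 0.15, 1.51 and 0.05 FPKM in the colitis mice, and Il11 read 0.08, 0.04 and 0.46 FPKM against 0.32, 1.49 and 0.53 FPKM. The receptor gene Il6ra lay on the lower side and read 2.75, 1.79 and 2.15 FPKM in the normal and 0.74, 0.72 and 1.12 FPKM in the colitis mice. Stat3 itself had overlapping groups (40.2, 32.2 and 29.8 FPKM against 33.8, 33.1 and 52.7 FPKM). Socs1, the inhibitor of interferon signalling, read 2.52, 3.76 and 2.97 FPKM against 4, 8.39 and 5.89 FPKM, without overlap (adjusted p = 0.232, limma). In the TNF and NF-κB list, 4 of 24 genes were at P of 0.05 or less, all higher, against 2.37% of all genes higher and 17.3% lower. These included Tnf, Nfkbiz, an inducible NF-κB cofactor, at 12.4, 10.3 and 16.7 FPKM against 30.7, 46.4 and 22.3 FPKM, and the necroptosis kinase Ripk3, at 15.5, 11.1 and 7.74 FPKM against 33.8, 131 and 20.4 FPKM. Il1b read 0.19, 0.94 and 0.26 FPKM in the normal and 3.58, 11.2 and 0.29 FPKM in the colitis mice, again with mouse 4 inside the normal range.

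B-cell and plasma-cell genes divided. Of 19 tested, 5 were lower and 1 higher at P of 0.05 or less and 5 were lower without overlap, against 17.3%, 2.37% and 18.0% of all genes, and the median was 0.01 (0.93 between the mice numbered 4). The 5 on the lower side were genes of antibody-secreting plasma cells or the B lineage, lower in each colitis mouse than in each normal mouse, with the surface proteoglycan Sdc1 at log2 -0.77. The gene on the higher side was Prdm1, a factor of plasma cells and other cells (log2 1.62, groups overlapping). Jchain, which joins IgA and IgM into polymers, read 264, 184 and 149 FPKM in the normal and 4.48, 21.7 and 29 FPKM in the colitis mice (log2 -3.76 ± 0.59, adjusted p = 0.0561, limma). Mzb1, an endoplasmic reticulum chaperone for antibody, read 10.1, 7.34 and 5.33 FPKM against 0.21, 1.38 and 1.17 FPKM, and Tnfrsf17, the plasma cell survival receptor BCMA, read 1.95, 1.19 and 1.2 FPKM against 0, 0 and 0.14 FPKM. Pou2af1, a B-lineage coactivator, read 1.36, 1.58 and 1.25 FPKM in the normal and 0.23, 0.26 and 0.86 FPKM in the colitis mice. None of these 4 passed the adjusted limit over the 12 mice, and without the mice numbered 4 all 4 did (adjusted p = 0.029, 0.0339, 0.0175 and 0.033, limma). Other B-cell genes overlapped: this was so for Cd79a, Cd79b, Ms4a1 and Pax5, and normal mouse 3 held the highest values, such as 2.61, 10.3 and 2.52 FPKM for Cd79a in the 3 normal mice. Pigr, which carries IgA across the epithelium, also overlapped (1306, 1369.8 and 669.8 FPKM against 1859, 1202 and 1180.4 FPKM).

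Macrophage and monocyte genes divided. Of 23 tested, 3 were higher and 4 lower at P of 0.05 or less, and 3 and 6 did not overlap, against 2.37%, 17.3%, 2.26% and 18.0% of all genes. At that P the lower count was close to the share of all genes and the higher count was above it. Adgre1, which encodes a surface marker of macrophages, read 2.9, 2.75 and 3 FPKM in the normal and 1.53, 1.53 and 1.12 FPKM in the colitis mice, and the receptor Csf1r read 4.85, 6.37 and 6.89 FPKM against 3.13, 3.56 and 3.21 FPKM, both without overlap on the lower side. Ly6c2 was also on the lower side, at 47.1, 28.4 and 14.1 FPKM against 0.98, 5.9 and 1.61 FPKM, though it too has close copies. The lysosomal marker Cd68 lay on the other side, at 7.12, 7.03 and 6.57 FPKM in the normal and 22.9, 12.9 and 9.16 FPKM in the colitis mice. Over the 12 mice none passed the adjusted limit (adjusted p = 0.222, 0.222, 0.12 and 0.244 for these genes, limma), and the list had a median of -0.25, 0.08 after quantile normalization and 0.20 after median centring. Without the mice numbered 4, 3 passed it on the higher side and 1 on the lower side, against 1.50% and 13.5% of all genes. Of 18 T-cell and cytotoxic genes, 3 (Cd4, Cd2 and Cd28) were lower without overlap, against 18.0% of all genes, and 1, Cd28, was lower at P of 0.05 or less. Cd3e, a chain of the T-cell receptor complex, overlapped (0.4, 0.68 and 0.57 FPKM against 0.5, 0.66 and 0.11 FPKM).

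Smooth muscle genes had a median below that of each normal mouse in colitis mice 2 and 3 and inside the normal range in mouse 4. Of 19 tested, 10 were lower at P of 0.05 or less and 3 without overlap, against 17.3% and 18.0% of all genes. None passed the adjusted limit, and 10 did without the mice numbered 4, against 13.5% of all genes. They had a median of -1.90 over 19 genes, -2.48 without the mice numbered 4 and -0.79 between them. Myh11, the smooth muscle myosin, read 189, 245 and 553 FPKM in the normal and 30.1, 17.2 and 286 FPKM in the colitis mice. Colitis mice 2 and 3 were below all normal mice and mouse 4 was inside their range, and the same held for Acta2. Actg2, the enteric smooth muscle actin, read 479, 569 and 779.9 FPKM in the normal and 86.6, 72.2 and 801 FPKM in the colitis mice, with mouse 4 above the normal mice. The 4 defining markers summed to 231 and 209 FPKM in colitis mice 2 and 3, 2135 FPKM in colitis mouse 4 and 1265 to 2501 FPKM in the normal mice. How much muscle wall each sample held was not measured, and its part in the results was not tested.

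Fibroblast and matrix genes were mostly on the lower side. Of 34 tested, 21 were at P of 0.05 or less and 16 did not overlap, all on the lower side, against 17.3% and 18.0% of all genes (median -1.42, -0.85 between the mice numbered 4, -0.97 after median centring). Igfbp3 passed the adjusted limit, and 11 genes did without the mice numbered 4 (13.5% of all genes), where the median was -1.56. The matricellular gene Postn read 96.7, 99.5 and 155 FPKM in the normal and 11.3, 11.5 and 59.9 FPKM in the colitis mice, and C1qtnf3, a secreted relative of complement C1q, read 5.92, 5.03 and 8.36 FPKM against 0.38, 0.16 and 1.31 FPKM (adjusted p = 0.196 and 0.117, limma). Col3a1, a fibrillar collagen, read 69.3, 83.9 and 123 FPKM against 25.9, 31.4 and 60.0 FPKM without overlap, while Col1a1 overlapped. Pdgfra, a receptor that marks subepithelial fibroblasts, read 5.14, 5.55 and 6.38 FPKM in the normal and 1.45, 1.69 and 3.16 FPKM in the colitis mice. Of 23 endothelial genes, 8 were on the lower side at P of 0.05 or less, against 17.3% of all genes (median -0.83, -0.38 after median centring). Without the mice numbered 4, 3 passed the adjusted limit on the lower side, against 13.5% of all genes. The junction protein gene Pecam1 read 10.9, 10.02 and 10.2 FPKM against 3.02, 1.99 and 5.65 FPKM (adjusted p = 0.151).

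Wnt ligands and niche factors, which sustain the crypt stem cells, had 8 of 24 genes at P of 0.05 or less on the lower side and 0 on the higher side, and 6 were lower without overlap, against 17.3%, 2.37% and 18.0% of all genes (median -0.87, -0.42 after median centring). Without the mice numbered 4, 7 passed the adjusted limit, against 13.5% of all genes. Wnt2b, a ligand of the canonical pathway made by stromal cells, read 1.83, 1.62 and 2.02 FPKM in the normal and 0.18, 0.42 and 1.32 FPKM in the colitis mice. Wnt5a, a ligand mostly of the non-canonical pathway, read 2.79, 2.48 and 1.87 FPKM against 0.26, 0.92 and 0.75 FPKM. For both the groups did not overlap, and colitis mouse 4 was nearest to the normal mice in Wnt2b. Of 23 stem cell and Wnt target genes, 6 were lower at P of 0.05 or less and 4 without overlap, against 17.3% and 18.0% of all genes (median -0.73, 0.01 between the mice numbered 4). Of these 23 genes, 7 passed the adjusted limit without the mice numbered 4, all lower, against 13.5% of all genes. The stem cell marker Lgr5 read 0.54, 0.99 and 0.47 FPKM in the normal and 0.01, 0 and 0.22 FPKM in the colitis mice (adjusted p = 0.207, 0.0282 without the mice numbered 4), and the stem cell factor Ascl2 read 0.4, 2.7 and 1.28 FPKM against 0.05, 0.05 and 0.88 FPKM with overlap in mouse 4. The Wnt target Axin2 also overlapped through mouse 4 (1.53, 2.97 and 2.66 FPKM against 0.39, 0.34 and 2.96 FPKM). The regenerative epithelial list had 3 of 25 genes higher and 2 lower at P of 0.05 or less, none of them overlapping, against 2.37% and 17.3% of all genes (median 0.40). On the higher side, Ly6a (Sca-1), from the same family as Ly6g, read 661, 597 and 270.1 FPKM against 1772, 6231 and 665 FPKM, and Plet1, a surface protein of wound-associated epithelium, read 0.68, 0.55 and 0.61 FPKM against 13.7, 443 and 2.32 FPKM, while the keratin gene Krt23 read 1.73, 2.37 and 1.67 FPKM against 13.4, 5.6 and 6.57 FPKM. On the lower side were the matricellular gene Ccn2 (log2 fold change -1.97) and Tgfbi, a matrix protein gene (log2 fold change -0.92). Proliferation genes had 1 of 30 lower at P of 0.05 or less, against 17.3% of all genes, and their median was -1.20 without the mice numbered 4 and 0.67 between them.

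Epithelial lineages differed in what they showed. Muc2, the gel-forming mucin of goblet cells, read 420.1, 439.9 and 474 FPKM in the normal and 833, 1287 and 792 FPKM in the colitis mice, without overlap (adjusted p = 0.219, limma), and the membrane mucin Muc1 read 12.8, 13 and 14.1 FPKM against 56.3, 50.7 and 17.5 FPKM. With Muc13, another membrane mucin, 3 of 19 goblet and mucin genes were higher without overlap, against 2.26% of all genes, and 4 were higher at P of 0.05 or less, against 2.37%. The goblet genes Tff3 and Clca1 overlapped. Of 27 enteroendocrine and tuft cell genes, 5 were higher and 1 lower at P of 0.05 or less, and 3 and 1 did not overlap, against 2.37%, 17.3%, 2.26% and 18.0% of all genes. Of them, 6 passed the adjusted limit without the mice numbered 4, all higher, against 1.50% of all genes, Gcg, Pyy, Cck and Insl5 among them (adjusted p = 0.0274, 0.0313, 0.0297 and 0.0362, limma). Gcg, the precursor of glucagon-like peptides, read 31.2, 47.2 and 13.8 FPKM in the normal and 309, 628 and 61.4 FPKM in the colitis mice. Pyy, the peptide YY gene of the same L cells, read 447, 483 and 222 FPKM against 2140.0, 3852 and 495 FPKM, and Tac1 read 11.1, 13 and 11.2 FPKM against 37.7, 91.5 and 29.4 FPKM. These are the 3 on the higher side without overlap (adjusted p = 0.214, 0.222 and 0.117), whereas the L-cell hormone gene Insl5 (264, 367 and 102 FPKM against 959, 1093 and 150.2 FPKM) and the pan-endocrine genes Chga and Chgb overlapped over the 3 mice a group (40.5, 46.3 and 23.9 FPKM against 35.3, 89.2 and 33.6 FPKM for Chga). Of 24 salt and water transport genes, 5 were lower and 1 higher at P of 0.05 or less, against 17.3% and 2.37% of all genes (median -0.61, -0.92 without the mice numbered 4, -0.16 after median centring). The 1 higher gene was 1 of the 6 past the adjusted limit. In this list, the chloride channel gene Cftr read 16, 25.1 and 12.1 FPKM against 4.43, 3.63 and 12 FPKM. Outside this list, Slc9a3, the apical sodium-proton exchanger of absorptive colonocytes, read 28.5, 20.7 and 22.3 FPKM against 50.1, 40.8 and 50.1 FPKM. Respiratory chain, cholesterol synthesis and tight junction lists had 0, 0 and 1 genes at P of 0.05 or less of 31, 22 and 28, the 1 being higher, against 2.37% of all genes higher and 17.3% lower, and 0 past the adjusted limit (limma). Without overlap were 3 respiratory chain genes on the lower side and 2 tight junction genes on the higher side, against 18.0% and 2.26% of all genes.

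**Figure D3:**
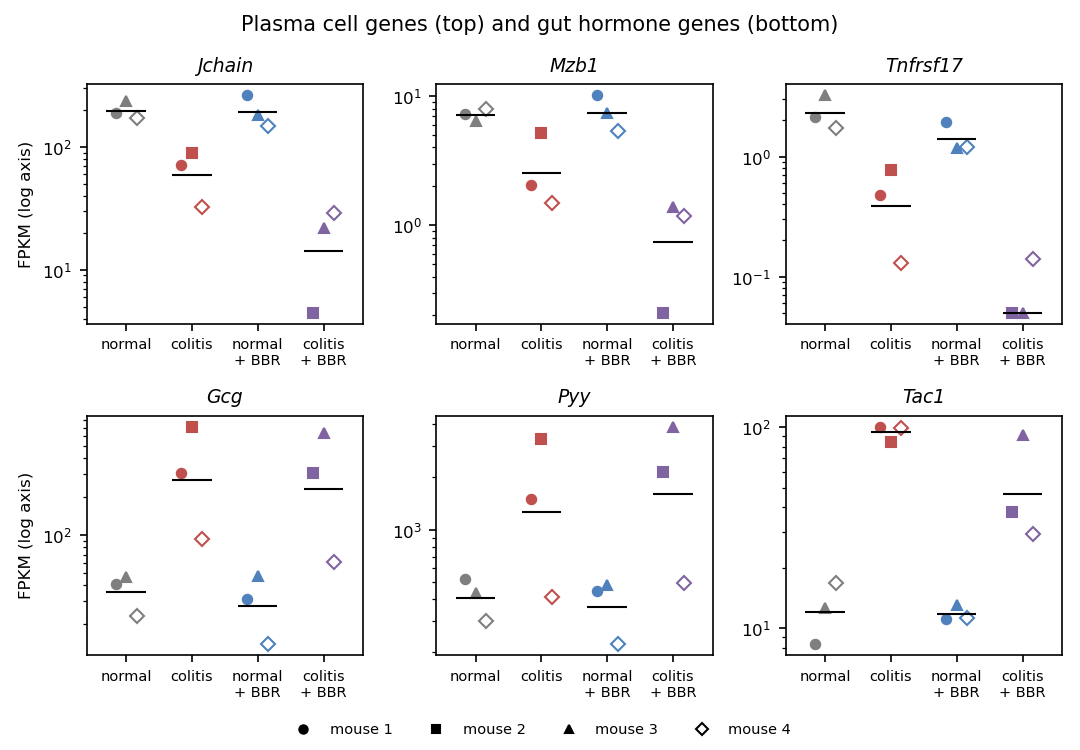
FPKM (log axis; values listed at 0 are drawn at 0.05) of 3 plasma cell genes (top) and 3 gut hormone genes (bottom) in each mouse of the 4 groups; symbols give the mouse number, open diamonds are the mice numbered 4, and lines are means on the log2(FPKM + 0.1) scale. Jchain lies at 4.48 to 29.0 FPKM in the colitis mice receiving BBR and at 149 to 264 FPKM in the normal mice receiving BBR, and Gcg at 61.4 to 628 against 13.8 to 47.2 FPKM.

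Clock genes form a feedback loop in which CLOCK or NPAS2 with ARNTL (BMAL1) drives the repressors of the PER, CRY and REV-ERB families through E-box motifs, and the factors DBP, TEF and HLF act on D-boxes that NFIL3 blocks. By the methods of the study collection began in the morning, with no hour given for each mouse. Of 24 clock genes tested, 10 were at P of 0.05 or less on the lower side and 2 on the higher side, against 17.3% and 2.37% of all genes, and 5 and 2 did not overlap, against 18.0% and 2.26%, none past the adjusted limit (median -0.96, -0.49 between the mice numbered 4, -0.50 after median centring). Without the mice numbered 4, 7 passed it on the lower and 2 on the higher side, against 13.5% and 1.50% of all genes. The repressor gene Per2 read 21.6, 28.2 and 23.9 FPKM in the normal and 10.1, 5.14 and 17.3 FPKM in the colitis mice, and Nr1d2 (REV-ERBβ) read 36.1, 31.7 and 45.6 FPKM against 11.7, 3.1 and 23.8 FPKM. The output factor Tef read 46.3, 52.1 and 55.4 FPKM against 14, 2.47 and 38.4 FPKM, and Ciart, an inhibitor of CLOCK-BMAL1, read 18, 18.8 and 28 FPKM against 4.07, 1.62 and 17.4 FPKM. In each of these the groups did not overlap, colitis mouse 3 was lowest, and colitis mouse 4 was nearest to the normal mice. On the higher side, Nfil3 read 1.13, 0.74 and 0.4 FPKM in the normal and 2.79, 4.57 and 1.56 FPKM in the colitis mice, and Npas2 read 5.13, 3.81 and 8.14 FPKM against 10.3, 10.5 and 11.8 FPKM. Clock and Arntl overlapped or had a P above 0.05, at log2 fold changes of -0.46 and 0.66. Dbp had the widest spread, at 13.5, 0.62 and 77 FPKM in the colitis mice.

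**Figure D4:**
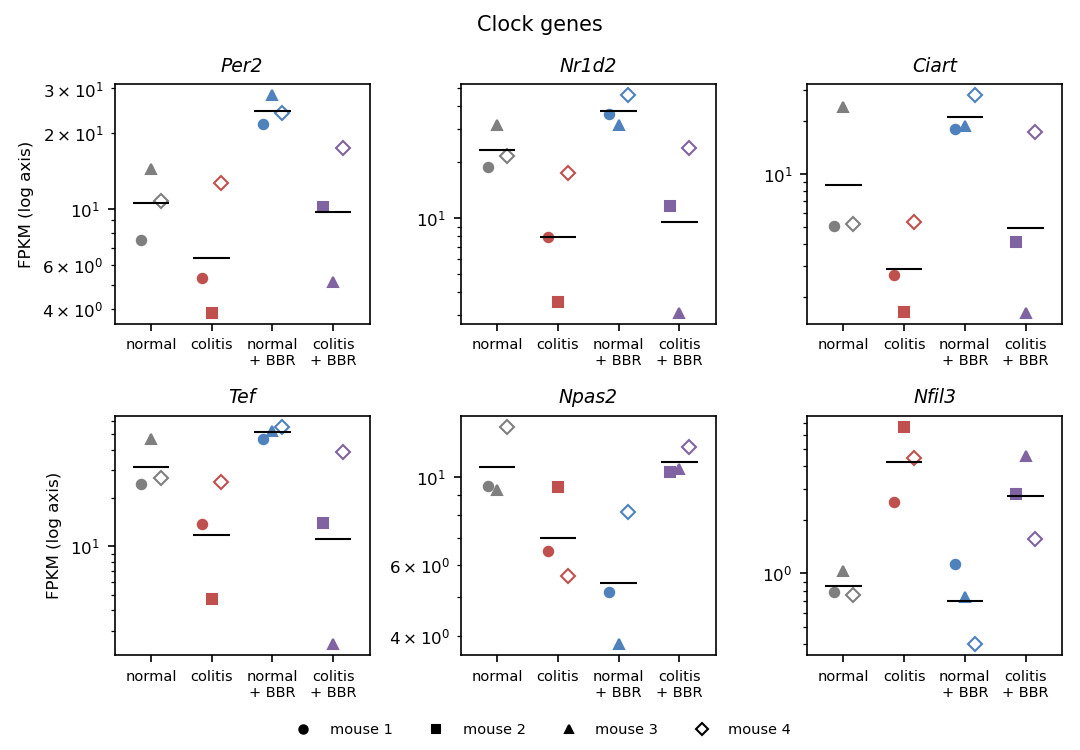
FPKM (log axis) of 6 clock genes in each mouse of the 4 groups; symbols give the mouse number, open diamonds are the mice numbered 4, and lines are means on the log2(FPKM + 0.1) scale. Per2, Nr1d2, Ciart and Tef lie lower and Npas2 and Nfil3 higher in colitis mice receiving BBR than in normal mice receiving BBR, with Per2 at 5.14 to 17.3 against 21.6 to 28.2 FPKM.

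The promoters of Ciart and Per3 are shown because they hold the most matches to the 2 clock motifs among the clock genes, CACGTG (E-box) in Ciart and TTANNTAA (D-box) in Per3, in capitals. Both motifs and the STAT motif read the same on both strands, and no match in 1 overlaps another in these promoters. The letters CACGTG occur in 6.02% and TTANNTAA in 5.43% of the 32851 promoters, and in 6 and 2 of the 27 promoters of the 19 clock genes that matched by symbol, some of which have several starts. A match in 250 bases is a description, not a site of binding. Both sequences are from RefSeq (GRCm38.p6), 5′ to 3′, the 250 bases before the start on the minus strand (chr3:95882229-95882478 and chr4:151044666-151044915). Per3 read 7.64, 12 and 15.1 FPKM in the normal and 3.79, 0.82 and 9.6 FPKM in the colitis mice, with colitis mouse 4 inside the normal range.
Ciart: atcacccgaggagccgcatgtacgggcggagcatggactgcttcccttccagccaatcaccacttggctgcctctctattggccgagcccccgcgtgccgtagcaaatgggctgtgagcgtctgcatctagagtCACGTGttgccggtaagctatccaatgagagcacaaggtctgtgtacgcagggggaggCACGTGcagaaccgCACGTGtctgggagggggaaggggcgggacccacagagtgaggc
Per3: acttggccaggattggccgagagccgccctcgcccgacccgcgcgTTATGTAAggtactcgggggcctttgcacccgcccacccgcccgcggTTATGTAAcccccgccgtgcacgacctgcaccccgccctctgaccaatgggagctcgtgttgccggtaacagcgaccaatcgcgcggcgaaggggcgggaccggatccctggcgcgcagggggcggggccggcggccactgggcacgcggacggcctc

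Some genes of fat cells were seen in colitis mice 2 and 3. Of 12 tested, 3 were higher at P of 0.05 or less and 3 without overlap, against 2.37% and 2.26% of all genes, and 4 passed the adjusted limit without the mice numbered 4, against 1.50%. The median was 0.60 with BBR and -1.78 without. Relative to the normal mice receiving BBR, the list median was 0.34, 0.03 and 3.16 in normal mice 1, 3 and 4 without BBR. In colitis mice 1, 2 and 4 without BBR it was 0.22, 0 and 0, so the -1.78 rests largely on normal mouse 4. Adipoq, the fat-cell hormone adiponectin, was 0 in each of the normal mice receiving BBR and read 7.35, 4.1 and 0.18 FPKM in the colitis mice, and Cfd (adipsin) read 0, 0.21 and 0.2 FPKM against 60.0, 28.6 and 1.41 FPKM. The 4 defining adipocyte markers summed to 0.45 to 1.04 FPKM in the normal and 1.06 to 20.6 FPKM in the colitis mice receiving BBR, but reached 30.6 FPKM in the normal mice without BBR, so the range over all mice is wide. Whether surrounding fat was carried along with some samples was not tested.

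The same DSS contrast without BBR (colitis mice against normal mice, 3 a side) shares no mouse with the above, though it shares the sequencing and a mouse numbered 4 in each group. Without BBR, 100 genes (0.653%) were past the adjusted limit on the higher side and 65 (0.424%) on the lower side, and 852 (5.56%) and 2428 (15.9%) were at P of 0.05 or less. Over all 15315 genes, which are not independent, the log2 fold changes of the contrasts correlated with r = 0.733 (Spearman's rho = 0.660), and 82.1% had the same sign. Both contrasts carry a downward shift of the whole table, with medians of -0.40 with and -0.32 without BBR. The same-sign share includes that shift and was not computed after rescaling. Of the 100 genes that rose without BBR, 96 were also on the higher side with BBR. At P of 0.05 or less on that side were 64 of the 100, against 2.37% of all genes. Their median log2 fold change was 1.67 with BBR and 3.55 without. Of the 65 that fell, 64 were on the lower side and 49 at P of 0.05 or less, against 17.3% of all genes, with medians of -1.44 against -2.32. The larger median without BBR goes with the choice of these genes by that contrast. At P of 0.05 or less, 3010 genes with BBR and 3280 without shared 1350 in the same direction (44.9% and 41.2%) and 6 in opposite directions. All 6 genes past the adjusted limit with BBR were past it without BBR.

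**Figure D5:**
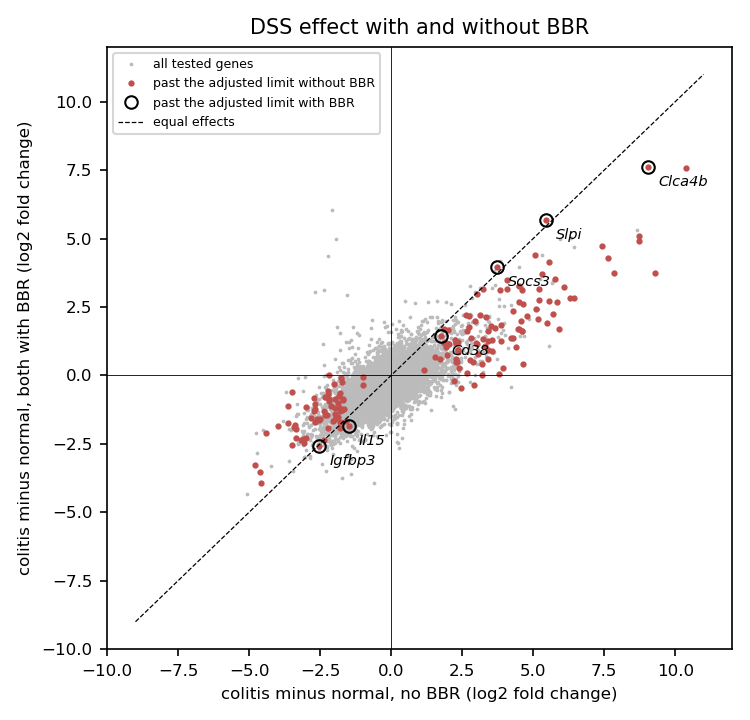
Log2 fold change of colitis against normal mice without BBR (x axis) and with BBR in both groups (y axis) for the 15315 tested genes; red points passed the adjusted limit without BBR, circles passed it with BBR, and the dashed line marks equal values. The points follow the diagonal (r = 0.733), and most red points on the right lie below it, with medians of 1.67 with and 3.55 without BBR.

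Whether the DSS effect differed with BBR was tested by the interaction. No gene passed the adjusted limit in either direction (0% higher and 0% lower, smallest adjusted p 1.00, limma), and 107 genes (0.699%) and 264 genes (1.72%) were at an unadjusted P of 0.05 or less on the higher and lower side. The genes with the smallest P are therefore given as values. Ly6g6c, a gene of the Ly6 family, read 4.54, 6.14 and 5.53 FPKM in normal mice 1, 3 and 4 and 1.03, 3.84 and 0.62 FPKM in colitis mice 1, 2 and 4 without BBR, but 1.78, 0.69 and 1.18 FPKM and 2.72, 5.74 and 4.3 FPKM with BBR, so that the sign of the effect was opposite (interaction log2 3.64, adjusted p = 1.00, limma). Abcc4, an exporter of organic anions and prostaglandins, likewise read 3.25, 4.09 and 3.93 FPKM against 2.04, 3.14 and 3.19 FPKM without BBR and 2.56, 2.51 and 3.04 FPKM against 7.31, 5.37 and 4.79 FPKM with BBR. Ly6g6c and Abcc4 are among 22 of the 15315 tested genes whose groups did not overlap in opposite directions. Glipr1 and C1qtnf5 overlapped without BBR (14.3, 15.7 and 14.1 FPKM against 19.1, 16.8 and 11.9 FPKM for Glipr1) and were apart with it (22.2, 18.3 and 19 FPKM against 4.25, 8.42 and 7.72 FPKM). Of the others with the smallest P, Ttll10, of the tubulin tyrosine ligase-like family, read 4.76, 4.8 and 5.51 FPKM against 1.68, 1.52 and 2.04 FPKM without BBR and 1.13, 2.01 and 4.33 FPKM against 5.35, 3.11 and 5.03 FPKM with BBR. Tfpi2, a protease inhibitor, read 3.51, 2.02 and 1.83 FPKM against 0.28, 0.67 and 0.44 FPKM and 0.94, 2.13 and 1.04 FPKM against 1.6, 1.17 and 1.18 FPKM. In both the groups were apart without BBR, colitis lower, and overlapped with it. Krtap3-1, a keratin-associated protein gene, read 0.99, 0.81 and 0.29 FPKM against 5.01, 4.59 and 2.66 FPKM without BBR, higher in colitis, and 1.93, 0.61 and 1.33 FPKM against 1.23, 0.8 and 0.57 FPKM with BBR, with overlap. Pet117, at 0 in the colitis mice receiving BBR, read 2.19, 1.48 and 1.28 FPKM against 1.51, 1.58 and 0.43 FPKM without BBR, with overlap. Myot, a muscle cytoskeletal gene, was listed at 0 in the normal mice of both kinds and read 8.55, 2.64 and 3.72 FPKM in the colitis mice and 0.18, 0.64 and 0.15 FPKM in the colitis mice receiving BBR. The clock gene Npas2 read 9.47, 9.28 and 13.3 FPKM against 6.5, 9.43 and 5.65 FPKM without BBR, with overlapping groups and a lower mean in colitis, where with BBR it was higher in each colitis mouse (adjusted p = 1.00, limma).

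By list, the most genes at an interaction P of 0.05 or less were among matrix-remodelling proteases, MHC class II, macrophage (7 of 23), interferon-γ and other chemokine genes (6 of 26), each on the lower side and against 1.72% of all genes, with none past the adjusted limit. The smaller list of fat-cell genes had 4 of 12 at that limit, against 0.699% of all genes higher and 1.72% lower. Its medians ran the other way, at 0.60 with and -1.78 without BBR, the latter resting largely on normal mouse 4. The proteases and their inhibitors had a median of -0.40 with BBR (0.06 after median centring) and 2.08 without, and 9 of 24 were at an interaction P of 0.05 or less, all lower. Mmp13, a collagenase, read 1.67, 2.93 and 1.19 FPKM in the normal and 27, 162 and 9.99 FPKM in the colitis mice without BBR, and 1.44, 1.51 and 0.96 FPKM and 1.24, 3.49 and 0.12 FPKM with BBR. Mmp7, the epithelial matrilysin, read 0.16, 0.1 and 0 FPKM against 0.81, 1.89 and 1.15 FPKM without BBR and at most 0.1 FPKM in each mouse receiving BBR. Of 14 MHC class II genes, 7 were at an interaction P of 0.05 or less (median -0.57 with and 0.65 without BBR). The median with BBR was -0.03 after quantile normalization and -0.11 after median centring. H2-Aa, an antigen-presenting chain, read 102, 145 and 108 FPKM against 149, 263 and 153 FPKM without BBR and 138, 252 and 95.1 FPKM against 64.1, 140.0 and 37 FPKM with BBR. The interferon-γ list, with its guanylate-binding proteins, had medians of 0.34 and 1.29, with 6 of 27 at that limit, and the colitis mice receiving BBR disagreed among themselves: Gbp2 read 22.6, 156 and 37.2 FPKM in mice 2, 3 and 4. The neutrophil chemokines had medians of 2.05 and 4.40, the antimicrobial list 1.66 and 1.68, the clock list -0.96 and -0.74 and the fibroblast list -1.42 and -0.67. No list was tested as a set.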

How the data were processed

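Rectal (methods) or colorectal (labels) RNA of 12 mice (4 groups of 3) was depleted of ribosomal RNA and sequenced. For kit and sequencer the labels and the study's methods differ. Per the submitters' processing notes, Bowtie2 2.2.5 and RSEM 1.2.12 were used with the mm9 build. The authors deposited FPKM per gene for each mouse. Depth was not given, and the worth of 1 read was estimated from steps between low values of 1836 genes with 1 transcript.

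Values were analysed as log2(FPKM + 0.1) with limma 3.58.1 in R 4.3.3: 1 mean per group over all 12 mice, eBayes with trend, and Benjamini-Hochberg adjustment over genes with a mean of at least 0.1 FPKM (limit 0.05). Fold changes on this scale understate the change of low genes. Groups came from the labels. The compared groups share the numbers 3 and 4 alone, so the mice were not treated as pairs. The fit was tested on simulated data.

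The mice were grouped by their labels alone, but the comparison described and the gene lists were chosen with earlier results of these data known. Named genes were those past the adjusted limit, then, to 10 a direction, those with the smallest P, a mean of at least 1 FPKM and no overlap between groups; in lists, those past the limit and the first 5; and for the interaction the 5 smallest P in each direction with a mean of at least 1 FPKM. Promoters (250 bases before the start) were matched by symbol to RefSeq GRCm38.p6, not the build of the files, for 5 of the 6 genes past the limit and 19 of 24 clock genes. Il15 had no entry. P-values measure only the spread between these samples. Alternatives were another pseudocount, filter, scaling and spread estimate, array weights, blocks, and leaving mice out.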

Additional observations from a re-analysis of the deposited data

How the results depend on the processing

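Of 6 genes past the adjusted limit, a pseudocount of 1 or 0.01, no filter, and a filter at a mean of 1 kept all 6, quantile normalization kept 5 and median centring 2. The number past the limit was 3 after median centring, 12 without a mean trend, 1914 with array weights, 268 with a block for the mice numbered 4, 2302 without those mice and 0 in a fit of the 6 mice alone. It ran from 0 to 2255 on leaving out each of the 6 mice receiving BBR in turn, the highest without colitis mouse 4 receiving BBR. Leaving out a mouse without BBR was not examined for this contrast. The number at P of 0.05 or less (3010) became 1894 after quantile normalization, 1706 after median centring, 5903 with array weights, 4685 with the block for the mice numbered 4 and 5960 without them, and ran from 1446 to 5915 on leaving out each of the 6 mice receiving BBR. For the interaction, 371 genes became 820 with array weights and 671 with the block for the mice numbered 4, and ran from 224 to 889 on leaving out each of the 12 mice. The causes were not tested. Calls of the 6 genes were kept in 68 and lost in 40 gene and setting pairs, with no change of direction. Of the pairs for genes that missed the limit, 63 came to pass it.

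When the replicate block (mouse number) was added, 7 genes passed the limit, 2 of the 6 among them, and 779 genes had an interaction P of 0.05 or less. The groups share the numbers 3 and 4 only, whose deviations correlated at 0.14 and 0.41. The 0.41 of the mice numbered 4 was the largest over all pairs. Every other pair with a mouse numbered 4 was negative, from -0.38 to -0.15. Since only these numbers are shared, they were not taken to pair the mice.

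The correlation r of the effects with and without BBR lay between 0.72 and 0.77 in the settings for which it was computed, which were not all of those above. By rank it was lower (Spearman's rho = 0.660). Depth limits genes near 0.1 FPKM.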
